A study of Mus musculus with 4 samples.

Results

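The unfolded protein response genes described here were 10 named genes (Hspa5, Hsp90b1, Sdf2l1, Dnajb9, Herpud1, Edem1, Xbp1, Atf4, Ddit3 and Trib3), chosen by symbol among 46078 gene rows, and each symbol matched 1 row. They were read in 4 mouse poly(A) RNA-seq libraries, 2 from Il33flx animals (genotype CD11c-cre-Il33flx/flx) and 2 from Ctrl animals (genotype CD11c-cre). All animals thus carried the Cre transgene, which is driven by the promoter of Itgax, the CD11c gene, and is active in dendritic cells and some other myeloid cells. All had been injected with EL4-Flt3 tumour cells, a derivative of a mouse T lymphoma line, 10 days before the tissues were taken. The tissue label names spleen plus mesenteric lymph node, and cells were sorted as CD45+, CD64-, CD11b+, MHCII+ and CD103+. The labels used here give no age and do not say how many animals stand behind a library, so the replicate spread behind each p-value may be technical in part. The question the design asks of these genes is whether their RNA differs between sorted cells that can delete Il33, the gene of an IL-1 family cytokine, and cells that cannot.

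The unfolded protein response adjusts the folding capacity of the endoplasmic reticulum (ER) to its load of newly made protein. Unfolded protein is sensed by 3 membrane proteins of the ER, IRE1 (Ern1), ATF6 (Atf6) and PERK (Eif2ak3). IRE1 cuts the Xbp1 mRNA so that a potent transcription factor is made, ATF6 is released by proteolysis and enters the nucleus, and PERK phosphorylates the translation factor eIF2 alpha, which lowers translation in general while that of Atf4 mRNA increases. Type 1 conventional dendritic cells are known for steady activity of the IRE1 and XBP1 branch, and plasma cells, which secrete antibody, depend on XBP1.

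The Xbp1 transcript shows what counts per gene can and cannot resolve. The window below is from GENCODE M21 transcript Xbp1-201 at chr11:5524259-5524324 (GRCm38, plus strand), in exon 4 of 5. Capitals mark the 26 bases at chr11:5524279-5524304 between the cut sites of the paired IRE1 cleavage loops, which a search for the loop letters CNGCAGC found.

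Xbp1: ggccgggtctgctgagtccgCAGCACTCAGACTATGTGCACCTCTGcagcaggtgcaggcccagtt

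Removing these bases shifted the reading frame and lengthened the open reading frame to 371 codons, against 267 codons with them. The 26 bases were 1.22% of the transcript of 2129 bases, and a count per gene pools both forms. The Xbp1 values below are therefore total Xbp1 RNA and do not measure splicing. Likewise, cleavage of ATF6 and translation of ATF4 leave no direct trace in a table of RNA counts.

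Promoter windows from RefSeq (GRCm38.p6, 250 bases before to 50 after the annotated start) were matched for 10 of 10 genes. The ER stress element, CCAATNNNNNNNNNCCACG, to which ATF6 binds together with NF-Y, was present on either strand in 39 of 32851 windows (0.119%) and in those of Hspa5 and Hsp90b1. A shorter related element, ERSE-II (ATTGG, any base, then CCACG), was present in 12 windows (0.0365%) and in that of Herpud1. These 3 stretches are shown because they hold the complete elements, with the fixed letters of these complete elements in capitals, including a UPRE core (TGACGTG, in 2.01% of windows) upstream in Hspa5 and a CARE element (TGATGNAA, in 3.97% of windows) on the opposite strand in Herpud1. They lie at chr2:34771918-34772058 (plus strand), chr10:86705518-86705671 (minus strand) and chr8:94386302-94386402 (plus strand).

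Hspa5: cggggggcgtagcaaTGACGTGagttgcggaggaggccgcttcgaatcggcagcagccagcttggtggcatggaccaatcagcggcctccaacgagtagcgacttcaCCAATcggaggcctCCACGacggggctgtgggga

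Hsp90b1: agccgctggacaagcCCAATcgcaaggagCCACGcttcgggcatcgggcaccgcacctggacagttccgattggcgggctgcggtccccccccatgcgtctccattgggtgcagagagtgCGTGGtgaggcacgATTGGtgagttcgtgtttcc

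Herpud1: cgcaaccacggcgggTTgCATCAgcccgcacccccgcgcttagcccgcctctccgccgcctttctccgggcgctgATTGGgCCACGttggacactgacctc

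In Hspa5 the element ran from -65 to -47 relative to the start. In Hsp90b1 there was 1 on the coding strand at -212 to -194 and 1 on the opposite strand at -107 to -89. The shorter element of Herpud1 ran from -52 to -42. The isolated CCAAT letters, which are part of the elements, were in 8 of 10 windows (37.4% of all windows) and CCACG was in 7 of 10 (32.8%). Trib3 had a CARE element at 15 to 22 bases after its annotated start, on the opposite strand. No complete ER stress element was in the windows of Sdf2l1, Dnajb9, Edem1, Xbp1, Atf4, Ddit3 or Trib3, which says only that these letters are not there.

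Libraries held 67707682 to 81217828 gene counts. A floor of 3 counts, about the 95% upper limit on the expected count where 0 were observed, corresponded to 0.0369 to 0.0443 CPM (counts scaled to the size of the library). Il33 itself had 4 and 0 counts in the Il33flx libraries and 4 and 8 counts in the Ctrl libraries, too few to check the labels. Of the markers of the sort gate, Ptprc (CD45), Itgam (CD11b), Itgae (CD103) and H2-Ab1 (MHC class II) were read in all libraries and Fcgr1 (CD64) stood at 3.66 to 5.50 CPM. Itgax (CD11c), whose promoter drives the Cre of both groups, had 359 and 407 CPM in the Il33flx libraries, against 647 and 517 CPM in the Ctrl libraries (log2 fold change -0.60 ± 0.19 SE, with an adjusted p of 0.995 and an unadjusted one of 0.0182, edgeR). Summed type 1 dendritic cell markers stood at 7102 and 7612 CPM in the Il33flx libraries and 9256 and 8067 CPM in the Ctrl libraries. The markers in this sum did not all go the same way. Of 8 markers 6 had a negative log2 fold change and 2 a positive one, Xcr1 at 0.25 and Clec9a at 0.11. The median was -0.26, and -0.07 without Ctrl 1. Both Il33flx libraries lay below both Ctrl libraries for 3 of the 8, where 14.9% of all tested genes did, and above for 0, where 15.4% did. Some markers of other cell types differed between the groups without overlap. The Il33flx libraries lay above the Ctrl libraries for 8 of 8 B cell, 6 of 8 erythroid and 4 of 8 neutrophil markers, where 15.4% of all tested genes did, with medians of 1.18, 2.60 and 0.88 on the log2 scale. They lay below for 7 of 8 T cell and EL4 markers, where 14.9% of all tested genes did, with a median of -0.54 (-0.31 without Ctrl 1). Summed B cell markers stood at 105 and 84.8 CPM in the Il33flx libraries, against 49.7 and 49.9 CPM in the Ctrl libraries, and summed erythroid markers at 46.5 and 28.0 CPM in the Il33flx libraries and 30.7 and 13.8 CPM in the Ctrl libraries. Summed neutrophil markers stood at 617 and 434 CPM in the Il33flx libraries, against 353 and 318 CPM in the Ctrl libraries, and summed T cell and EL4 markers at 74.8 and 64.4 CPM in the Il33flx libraries, against 126 and 80.4 CPM in the Ctrl libraries. The part of these cells in the values below was not tested. The libraries were not alike. On the first principal component, 50% of the variance, Ctrl 1 lay at 70.1, against -26.2 and -25.2 for the Il33flx libraries and -18.8 for Ctrl 2. Summed mature dendritic cell markers stood at 1157 and 1039 CPM in the Il33flx libraries and 2052 and 1049 CPM in the Ctrl libraries. Of these 8 markers 7 had a negative log2 fold change and 1 a positive one, Il12b at 0.25. Their median was -0.26, and 0.16 without Ctrl 1. The part of cell state in the other deviations of Ctrl 1 was not tested. Values without Ctrl 1 are given beside some of the results.

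Between genotypes, no gene among the 10 differed beyond the spread of the libraries. Of 10 tested genes 0 were called at an adjusted p below 0.05 by edgeR's quasi-likelihood test, where 0.00667% of all 14995 tested genes were called. At an unadjusted p under 0.05 there were also 0, against 3.26% of all tested genes, and DESeq2 and limma-voom each called 0. Without Ctrl 2 there were 2 at that level (Hsp90b1 and Dnajb9), where 20.6% of all genes in that fit were, and still 0 were called. Log2 fold changes of Il33flx over Ctrl ran from -0.18 for Ddit3 to 0.40 for Trib3, with a median of 0.05, beside 0.01 over all tested genes. The median size of the change regardless of sign was 0.0844 for these genes and 0.212 over all tested genes. In 2 genes, Hspa5 and Xbp1, both Il33flx libraries lay below both Ctrl libraries, as in 14.9% of all tested genes, and in 0 both lay above, as in 15.4%. The log2 fold change was above 0 in 6 of the 10, where 51.8% of all tested genes were, and below 0 in 4, where 48.2% were. The smallest two-sided p that permuting 2 libraries against 2 can give is 0.333, and no such test was run.

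**Figure D1:**
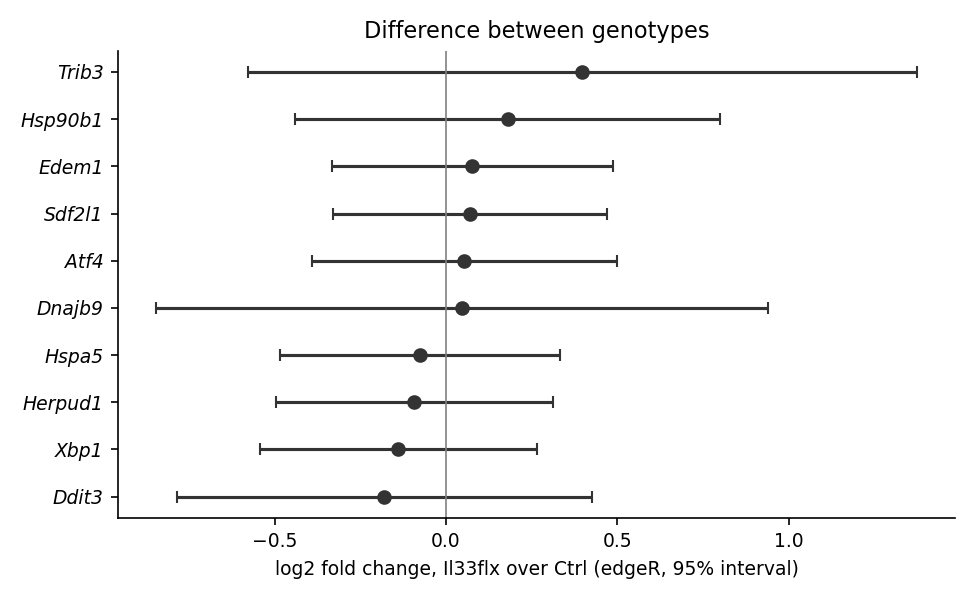
Log2 fold change of Il33flx over Ctrl for each gene (points) with its 95% interval (bars) from edgeR, 2 libraries a group. All 10 intervals include 0. They are narrowest for Sdf2l1, Herpud1, Xbp1, Hspa5 and Edem1 and widest for Trib3 and Dnajb9. Abundance does not order them throughout, since that of Hsp90b1 is wider than those of the scarcer Atf4 and Ddit3.

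Of the ER chaperone genes, Hspa5 was the most abundant. It encodes BiP, the main Hsp70 chaperone of the ER and a regulator that holds the sensors inactive (ENSMUSG00000026864, chromosome 2, 34771970 to 34777547). It had 3131 and 3153 CPM in the Il33flx libraries, against 3434 and 3189 CPM in the Ctrl libraries. All 4 libraries lay within 1.10-fold of each other, with Ctrl 1 highest and the groups just apart. The log2 fold change was -0.08 ± 0.17 SE (95% interval -0.48 to 0.33, adjusted p = 0.995, edgeR), so that the interval reached from 0.716-fold to 1.26-fold. It was 0.00 with library size alone as the scale and -0.01 without Ctrl 1.

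Hsp90b1 encodes GRP94, the Hsp90 chaperone of the ER, which folds Toll-like receptors and integrins (chromosome 10, 86690209 to 86705509). It read 734 and 683 CPM in the Il33flx libraries and 473 and 778 CPM in the Ctrl libraries. Ctrl 1 stood below the other 3, and the Ctrl libraries differed 1.65-fold from each other, more than the Il33flx libraries did at 1.07-fold. On the log2 scale the difference was 0.18 ± 0.26 SE (adjusted p = 0.995, edgeR). It was -0.13 without Ctrl 1 and 0.58 without Ctrl 2 (adjusted p = 0.142, edgeR). Its sign therefore turned with the Ctrl library that was kept, and it also turned with both kept when GC content was adjusted for, to -0.02. Exons of Hsp90b1 overlapped those of 1810014B01Rik on the opposite strand by 415 bases, and that gene had 164 counts in all 4 libraries together.

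Sdf2l1 encodes an ER protein that works with BiP and its J-domain partners (chromosome 16, 17130138 to 17132383). It stood at 499 and 523 CPM in the Il33flx libraries and 467 and 506 CPM in the Ctrl libraries, a log2 fold change of 0.07 ± 0.17 SE. Its libraries overlapped between groups and spanned 1.12-fold. Dnajb9 encodes ERdj4, a J-domain co-chaperone that helps BiP keep IRE1 inactive (chromosome 12, 44205559 to 44210326). It had 15.4 and 12.2 CPM in the Il33flx libraries and 8.73 and 18.0 CPM in the Ctrl libraries. This was the widest span of the 10 genes, 2.06-fold, and both ends of it were Ctrl libraries. Its log2 fold change was 0.05 ± 0.37 SE, and it was -0.37 without Ctrl 1 and 0.65 without Ctrl 2 (adjusted p = 0.242, edgeR).

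Of the genes for disposal of misfolded protein, Herpud1 encodes a membrane protein that organises the ER-associated degradation complex (chromosome 8, 94386438 to 94395377). It had 739 and 807 CPM in the Il33flx libraries, against 848 and 800 CPM in the Ctrl libraries. Edem1, whose product directs misfolded glycoproteins to degradation (chromosome 6, 108828641 to 108859356), had 293 and 284 CPM in the Il33flx libraries and 255 and 292 CPM in the Ctrl libraries. In each of the 2 genes the groups overlapped and all libraries lay within 1.15-fold. Their log2 fold changes were -0.09 ± 0.17 SE and 0.08 ± 0.17 SE (adjusted p = 0.995 for each, edgeR). Without Ctrl 1 they were -0.04 for Herpud1 and -0.01 for Edem1.

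The transcription factor genes stood apart in level but not by genotype. Xbp1, the IRE1 target (ENSMUSG00000020484, chromosome 11, 5520659 to 5525893), had 297 and 287 CPM in the Il33flx libraries, against 341 and 303 CPM in the Ctrl libraries. The groups did not overlap, by a margin of 297 to 303 CPM, and Ctrl 1 was the highest library. Its log2 fold change was -0.14 ± 0.17 SE (95% interval -0.54 to 0.27, adjusted p = 0.995, edgeR), and without Ctrl 1 it was -0.04. Atf4, the factor whose translation PERK favours (chromosome 15, 80255184 to 80257541), had 54.3 and 61.3 CPM in the Il33flx libraries and 57.4 and 54.0 CPM in the Ctrl libraries, a log2 fold change of 0.05 ± 0.19 SE.

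Ddit3 encodes CHOP, a factor induced by ATF4 and associated with cell death under lasting ER stress (chromosome 10, 127290774 to 127296288). It stood at 9.22 and 11.7 CPM in the Il33flx libraries and at 12.7 and 10.9 CPM in the Ctrl libraries. With a log2 fold change of -0.18 ± 0.25 SE, and -0.06 without Ctrl 1, the groups overlapped. In length-normalised terms the ratio of Ddit3 to Atf4 was 0.234 and 0.263 in the Il33flx libraries, against 0.306 and 0.279 in the Ctrl libraries, a description of the libraries with no test. Ddit3 exons overlapped annotated exons of Mars by 68 bases and of Gm4189 by 13 bases, both on the opposite strand. They also overlapped a second annotated gene of the same name and strand by 105 bases, and no other gene row carried that symbol.

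Trib3 encodes a pseudokinase induced by ATF4 and CHOP that in turn restrains ATF4 (chromosome 2, 152337422 to 152344032). It was the scarcest of the 10 genes, with 144 and 101 counts in the Il33flx libraries and 110 and 90 counts in the Ctrl libraries, or 2.04 and 1.43 CPM against 1.43 and 1.20 CPM. Il33flx 1 was the highest library, and Il33flx 2 lay just below Ctrl 1. The log2 fold change of 0.40 ± 0.41 SE had a 95% interval of -0.58 to 1.37, or 0.670-fold to 2.59-fold. Without Il33flx 1 the log2 fold change was 0.12, and without Ctrl 1 it was 0.54.

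In the authors' deposited table, the 10 genes had log2 fold changes of -0.20 for Ddit3 to 0.37 for Trib3, and 0 of them were below an adjusted p of 0.05, where 0.34% of 15001 listed genes were. The sign was that of edgeR in 10 of 10.

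**Figure D2:**
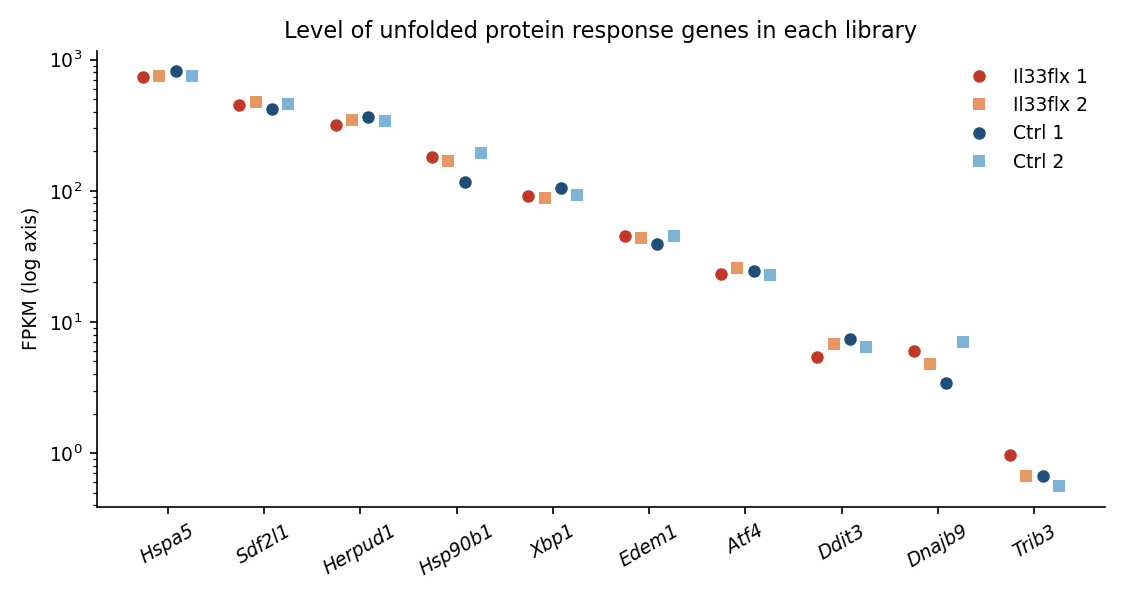
Level per exon length (FPKM, log axis) of each gene, with 1 point for each library, genes ordered by their mean. Levels run from 763 FPKM for Hspa5 to 0.717 for Trib3, and within a gene the 4 libraries lie close together except for Hsp90b1, Dnajb9 and Trib3.

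Levels were compared between genes as FPKM, the CPM divided by the total exon length of the gene in kilobases. The order by mean over the 4 libraries was Hspa5 at 763 ± 33.2 FPKM (SD, n = 4), Sdf2l1 at 450 ± 21.0, Herpud1 at 342 ± 19.3, Hsp90b1 at 165 ± 33.5, Xbp1 at 94.5 ± 7.17, Edem1 at 43.5 ± 2.75, Atf4 at 24.1 ± 1.44, Ddit3 at 6.51 ± 0.865, Dnajb9 at 5.33 ± 1.58 and Trib3 at 0.717 ± 0.17 FPKM. Hspa5, Sdf2l1, Herpud1 and Hsp90b1 thus stood above the transcription factor genes, while the co-chaperone gene Dnajb9 stood below all of them and above Trib3 alone. Every step of this order held in 4 of 4 libraries except that between Ddit3 and Dnajb9, whose ranges overlapped and whose order held in 2 of 4. Hspa5 exceeded 99.9% of tested genes in mean CPM. Trib3 exceeded 27.4% of them.

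Summed over the 10 genes, the level was 5774 and 5824 CPM in the Il33flx libraries, against 5898 and 5952 CPM in the Ctrl libraries. As a share of the raw gene counts it was 0.602% and 0.589% in the Il33flx libraries and 0.557% and 0.596% in the Ctrl libraries. On that scale the groups overlapped, with Ctrl 1 lowest. Hspa5 made up 53.6% to 58.2% of that sum, with the highest share in Ctrl 1. Relative to one another the chaperones were not constant. The FPKM ratio of Hspa5 to Hsp90b1 was 4.07 and 4.4 in the Il33flx libraries and 6.93 and 3.91 in the Ctrl libraries, so Ctrl 1 was the odd library. The ratio of Hspa5 to Xbp1 held at 8.09 and 8.43 in the Il33flx libraries and 7.74 and 8.08 in the Ctrl libraries.

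Ctrl 1 was the extreme library for most of these genes. It was the lowest library for 4 of them (Hsp90b1, Dnajb9, Sdf2l1 and Edem1), where 36% of all tested genes were lowest in Ctrl 1. It was the highest for 4 others (Hspa5, Herpud1, Xbp1 and Ddit3), where 34.2% of all tested genes were. Both counts, 40% of the 10 genes each, lay near those shares. Il33flx 1 was the highest library for 2 genes (Edem1 and Trib3), where 21.4% of all tested genes were, and Ctrl 2 was the lowest for 2 (Atf4 and Trib3), where 20.6% were. Among 94 other genes of the pathway lists that were tested, Ctrl 1 was lowest for 36.2% and highest for 50%.

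Of the genes that were low in Ctrl 1, the 2 farthest down had AT-rich transcripts. Dnajb9 and Hsp90b1 had the lowest GC content of the 10, 40.6% and 42.0% of the longest annotated transcript, beside a median of 49.6% over 14945 tested genes. Their log2 CPM in Ctrl 1 minus the mean of the other 3 libraries was -0.78 for Dnajb9 and -0.63 for Hsp90b1. Over all genes the median deviation of Ctrl 1 was -0.98 in 904 genes of at most 40% GC and 0.26 in 2446 genes above 56% GC. Across these 14945 genes, which share the same library and are not independent, the deviation of Ctrl 1 correlated with GC content at a Pearson's r of 0.447 and a Spearman's rho of 0.520. For the other libraries Pearson's r was -0.290 to -0.0916. Each deviation is taken against the other libraries, so these signs are not independent of that of Ctrl 1. Over the 10 genes alone Pearson's r was 0.0498 and 0.133 in the Il33flx libraries and 0.529 and -0.785 in the Ctrl libraries. Spearman's rho for Ctrl 1 was then 0.248.

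**Figure D3:**
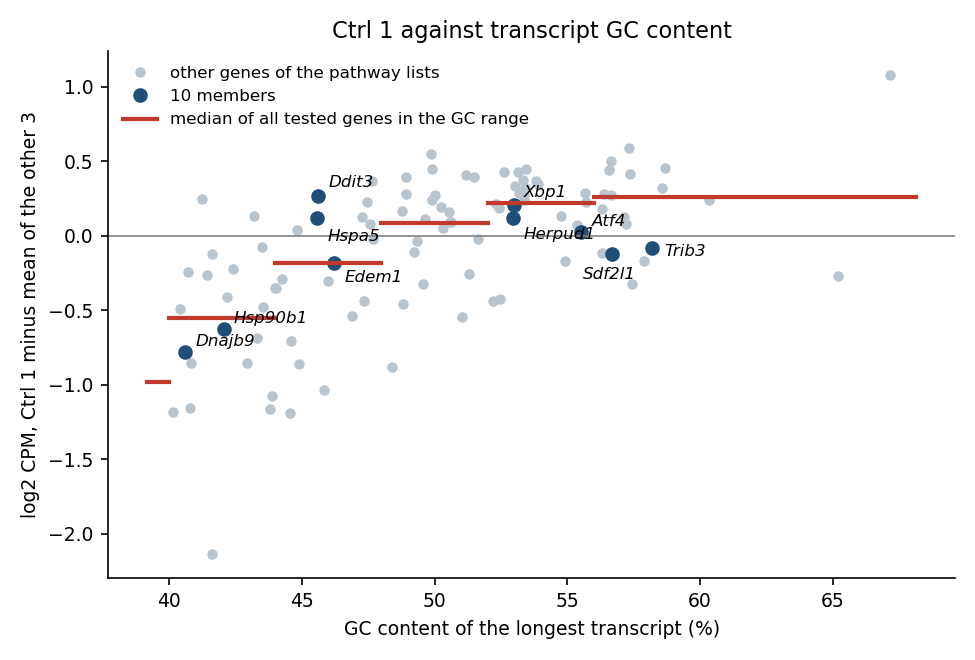
Deviation of Ctrl 1 from the mean of the other 3 libraries (log2 CPM) against GC content of the longest transcript in percent, for the 10 genes and other tested genes of the pathway lists. Horizontal lines give the median of all tested genes in each GC range, from -0.98 at the lowest to 0.26 at the highest.

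Of 19 other tested pathway genes with at most 44% GC, 17 were lower in Ctrl 1 than in the mean of the other libraries. The other 2, Sec23b and Dnajc3, deviated by 0.24 and 0.13. The median deviation of the 19 was -0.48, beside -0.55 over all 2170 tested genes of 40% to 44% GC. Among the 17 are the following, chosen after their values were seen. Erp44, whose product retains ER proteins that lack a retention signal, had 121 and 133 CPM in the Il33flx libraries and 29.3 and 132 CPM in the Ctrl libraries, and 41.6% GC. Spcs3, a signal peptidase subunit gene of 40.2% GC, had 294 and 258 CPM in the Il33flx libraries and 130 and 339 CPM in the Ctrl libraries. Ssr3, a translocon subunit gene, had 137 and 121 CPM in the Il33flx libraries and 77.4 and 167 CPM in the Ctrl libraries. In each of these genes Ctrl 1 was low and Ctrl 2 stood with or above the Il33flx libraries. The log2 fold change of Erp44 was 0.65 with all libraries, -0.05 without Ctrl 1 and 2.11 without Ctrl 2 (adjusted p = 0.995, 0.99997 and 0.119, edgeR).

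When the trend of each library on GC content was removed as an offset, an alternative chosen after the data were seen, Hsp90b1 became even across libraries. Its adjusted level was 654 and 644 CPM in the Il33flx libraries and 637 and 675 CPM in the Ctrl libraries, and the span fell to 1.06-fold. For Dnajb9 it was 13.4 and 11.4 CPM in the Il33flx libraries and 12.7 and 14.9 CPM in the Ctrl libraries, a span of 1.30-fold. Hspa5 went the other way, to 2965 and 3007 CPM in the Il33flx libraries and 3911 and 3026 CPM in the Ctrl libraries. Its GC content was 45.6%, and its deviation in Ctrl 1 before the offset was 0.12. The offset was fitted to these same libraries, and whether GC content accounts for the Ctrl 1 values was not tested. The span narrowed for 6 of the 10 genes and widened for 4, while its median over the 10 rose from 1.17-fold to 1.26-fold. With the offset edgeR called 0 of the 10, with log2 fold changes of -0.02 for Hsp90b1, -0.16 for Dnajb9 and -0.22 for Hspa5 (adjusted p = 0.961 to 0.995).

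**Figure D4:**
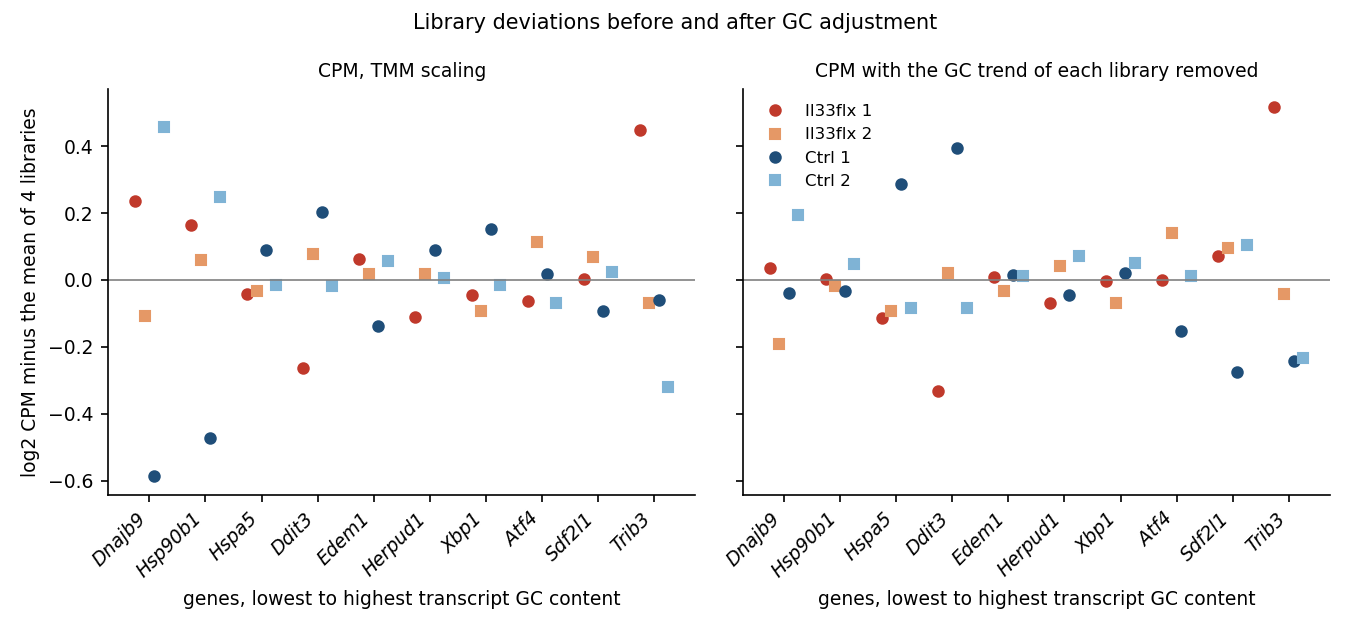
Log2 CPM of each library minus the mean of the 4 libraries, genes ordered by transcript GC content, before (left panel) and after (right panel) removal of each library's trend on GC content. Ctrl 1 lies lowest for Dnajb9 and Hsp90b1 on the left, and on the right those genes draw together while Hspa5, Ddit3, Atf4 and Sdf2l1 spread.

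Of 94 tested genes in 8 pathway lists, the 10 genes left out, 0 passed the adjusted threshold in edgeR, DESeq2 or limma-voom. At an unadjusted p under 0.05 stood 1 (1.06%), beside 3.26% of all tested genes, and 0 were called without any 1 library. Without Ctrl 2, 28 were at that unadjusted level, where 20.6% of all genes in that fit were, and without Ctrl 1 there were 4, where 5.67% were. Without Il33flx 1 and without Il33flx 2 there were 0, where 2.35% and 1.95% of all genes were. The log2 fold change was positive in 33 and negative in 61, with a median of -0.05, but with library size alone as the scale it was positive in 55 and negative in 39. Both Il33flx libraries lay above both Ctrl libraries in 7 of them and below in 18, where 15.4% and 14.9% of all tested genes did so.

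The sensors themselves were expressed in all libraries. Ern1, the IRE1 gene, had 34.2 and 27.7 CPM in the Il33flx libraries and 32.8 and 30.7 CPM in the Ctrl libraries. Atf6 had 161 and 155 CPM in the Il33flx libraries and 134 and 182 CPM in the Ctrl libraries. Eif2ak3, the PERK gene, had 49.2 and 46.4 CPM in the Il33flx libraries, against 65.0 and 51.7 CPM in the Ctrl libraries, and was the sensor whose groups did not overlap (log2 fold change -0.29 ± 0.20 SE, adjusted p = 0.995, edgeR, and -0.10 without Ctrl 1). Eif2ak4, which encodes the amino acid sensor GCN2, had 56.8 and 47.4 CPM in the Il33flx libraries and 59.8 and 48 CPM in the Ctrl libraries. Eif2ak1, the heme-regulated eIF2 kinase gene, had 155 and 157 CPM in the Il33flx libraries and 146 and 163 CPM in the Ctrl libraries.

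Among 14 ER chaperone genes, here with Hspa5, Hsp90b1, Sdf2l1 and Dnajb9, 6 had a positive and 8 a negative log2 fold change. Calr, the calreticulin gene, had 1117 and 1076 CPM in the Il33flx libraries and 1324 and 1094 CPM in the Ctrl libraries, and Canx, the calnexin gene, had 583 and 419 CPM in the Il33flx libraries and 403 and 632 CPM in the Ctrl libraries. Among 10 disulfide isomerase and oxidase genes the median was -0.09. Pdia3 (ERp57), which also serves in peptide loading of MHC class I, had 2348 and 2185 CPM in the Il33flx libraries and 1649 and 2669 CPM in the Ctrl libraries, while the isomerase gene P4hb had 1110 and 1238 CPM in the Il33flx libraries and 1500 and 1143 CPM in the Ctrl libraries.

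In the list for ER-associated degradation, which holds Herpud1 and Edem1, the log2 fold change was below 0 in 12 of 15 tested genes. The list median was -0.17, and -0.04 without Ctrl 1. Vcp, the ATPase that extracts proteins from the ER membrane, had 337 and 367 CPM in the Il33flx libraries, against 527 and 376 CPM in the Ctrl libraries, and Os9, an ER lectin gene, had 277 and 280 CPM in the Il33flx libraries and 393 and 277 CPM in the Ctrl libraries. Both were highest in Ctrl 1. Derl3, named here because it was the gene at an unadjusted p under 0.05, encodes a derlin that is prominent in secretory cells. It had 6.10 and 5.17 CPM in the Il33flx libraries, against 9.62 and 8.28 CPM in the Ctrl libraries (log2 fold change -0.67 ± 0.27 SE, with an adjusted p of 0.995 and an unadjusted p of 0.0430, edgeR).

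Plasma cells are rich in Derl3 and Xbp1, and their markers were read beside these genes. The summed level of 9 plasma cell markers, Derl3 among them, was 85.7 and 75.8 CPM in the Il33flx libraries and 89.5 and 86.7 CPM in the Ctrl libraries. Jchain had 38.5 and 34.0 CPM in the Il33flx libraries, against 48.7 and 44.3 CPM in the Ctrl libraries. Tnfrsf17 (BCMA) had 0.0283 and 0.0565 CPM in the Il33flx libraries, against 0.365 and 0.213 CPM in the Ctrl libraries. These Tnfrsf17 values rest on 2 and 4 counts, against 28 and 16 counts, and lie near the floor of 3 counts. In contrast, Mzb1 had 5.23 and 5.20 CPM in the Il33flx libraries and 3.86 and 4.00 CPM in the Ctrl libraries. Of the 9 markers 5 had a positive and 4 a negative log2 fold change, 0 were called by edgeR or DESeq2, and the median was 0.25. At an unadjusted p under 0.05 stood 3, where 3.26% of all tested genes did, namely Derl3 itself, Tnfrsf17 and Eaf2. Eaf2 went the other way, with 0.878 and 1.12 CPM in the Il33flx libraries, against 0.326 and 0.465 CPM in the Ctrl libraries. These markers were named after their values were seen. Their part in the Derl3 and Xbp1 values was not tested. In sorted bulk RNA fewer cells of a type and less RNA per cell cannot be told apart.

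Among 15 tested genes of the PERK, ATF4 and CHOP branch, with Atf4, Ddit3 and Trib3 among them, 7 were positive and 8 negative, with a median of 0.00. Atf3, a stress-induced repressor gene, had 428 and 671 CPM in the Il33flx libraries and 397 and 539 CPM in the Ctrl libraries. Ppp1r15a (GADD34), which brings the phosphatase that reverses eIF2 phosphorylation, had 263 and 347 CPM in the Il33flx libraries and 344 and 276 CPM in the Ctrl libraries. Both genes were thus far above Ddit3 and Trib3 in CPM, and in both the groups overlapped. Of 18 genes for amino acid supply and tRNA charging, many of which ATF4 controls, 5 lay apart upward and 5 downward, where 15.4% and 14.9% of all tested genes did. The tRNA synthetase genes Gars, at 282 and 312 CPM in the Il33flx libraries and 336 and 290 CPM in the Ctrl libraries, and Nars, at 283 and 283 CPM in the Il33flx libraries and 312 and 291 CPM in the Ctrl libraries, differed little.

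Genes for protein entry into the ER and export from it split evenly, with 8 positive and 7 negative of 15 tested. Sec61a1, the pore subunit of the translocon, had 599 and 590 CPM in the Il33flx libraries, against 786 and 666 CPM in the Ctrl libraries (log2 fold change -0.29 ± 0.18 SE, adjusted p = 0.995, edgeR, and -0.16 without Ctrl 1). Sec31a, a coat protein gene of ER export vesicles, had 266 and 300 CPM in the Il33flx libraries and 323 and 289 CPM in the Ctrl libraries. Among transcripts reported as cut by IRE1, 5 of 7 tested lay below 0 on the log2 scale. Their median was -0.15, and 0.04 without Ctrl 1. Tapbp (tapasin) had 1242 and 1189 CPM in the Il33flx libraries, against 1367 and 1332 CPM in the Ctrl libraries, and the integrin gene Itgb2 had 1307 and 1297 CPM in the Il33flx libraries and 1730 and 1259 CPM in the Ctrl libraries.

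**Figure D5:**
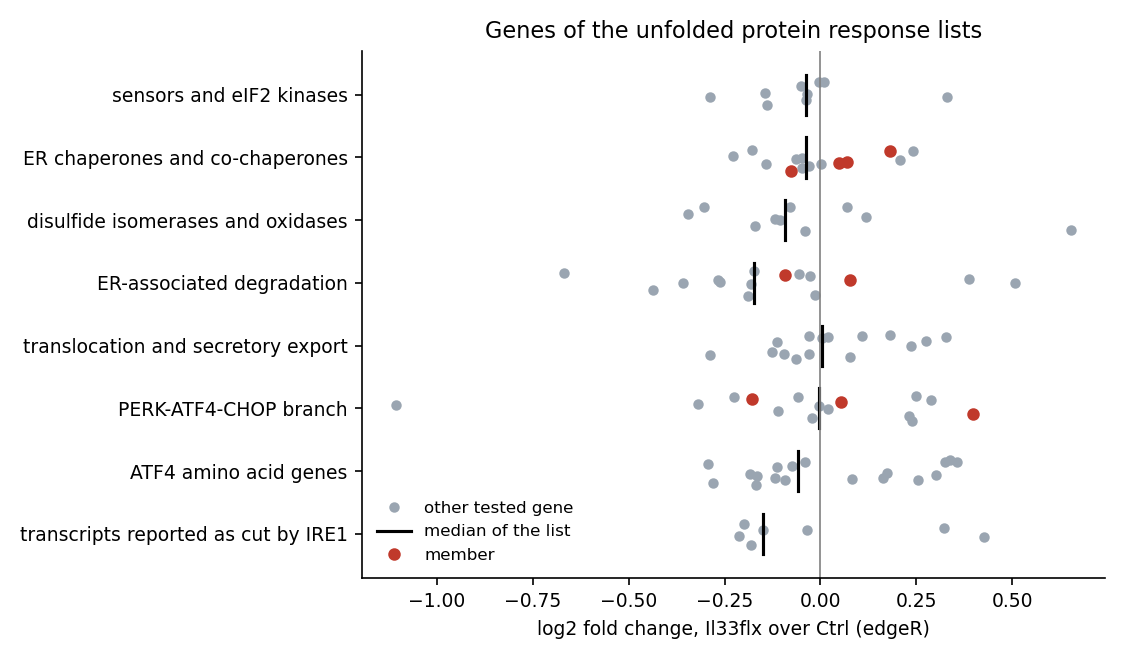
Log2 fold change of Il33flx over Ctrl (edgeR) for each tested gene of the 8 pathway lists, with the 10 genes where listed (Xbp1 is in no list) and the median of each list as a vertical line. List medians lie between -0.17 and 0.00, and none of the plotted genes passed the adjusted threshold.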

How the data were processed

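Per the submitters' processing notes, reads were processed with Trimmomatic 0.39, STAR, HTSeq and DESeq2 on GRCm38; other versions, the annotation release and the strand setting are not given in the sources used here. The deposited count table holds unnormalized whole-number counts per Ensembl gene. In the authors' deposited DESeq2 table, log2 fold changes with their errors and p-values were read as given. The 5 HTSeq summary rows, 27.8% to 30.1% of all counted reads, stayed out. GENCODE M21 named 45229 of 46078 gene rows.

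Differences of Il33flx from Ctrl were fitted with edgeR 4.0.16 (quasi-likelihood; R 4.3.3; filterByExpr, TMM, no covariate) over 14995 genes, with Benjamini-Hochberg adjustment and calls below 0.05. An SE is the log2 fold change over the square root of F. CPM are TMM-normalized. DESeq2 1.42.0 and limma 3.58.1 (voom), other scalings and filters, the replicate block and leaving out each library were alternatives; an offset for GC content, alone or with the block, was added after seeing the data. The fit was tested on simulated counts with known changes, which held no GC trend and no library set apart as Ctrl 1 is. Depth was 67707682 to 81217828 counts; limits from counts cover counting error only. No other annotated transcript matched these genes at 95% identity over 150 bases except an overlapping antisense gene of Hsp90b1.

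The genes and lists were chosen with earlier results of these data known. Named beyond the 10 were the sensors and, in each list, the 2 genes highest in mean CPM, Il33 and the 5 genes nearest to the mean profile; others are marked where named.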

Additional observations from a re-analysis of the deposited data

How the results depend on the processing

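Across 13 alternatives, 0 of the 10 genes was called in any, and the lowest adjusted p was 0.142 (Hsp90b1 without Ctrl 2). The median log2 fold change of the 10 genes was -0.03 to 0.12. The sign held in every alternative for Sdf2l1, Herpud1, Xbp1, Ddit3 and Trib3 and turned in 12 of 130 values, none of them called. Hspa5 was at 0.00376 with library size alone. With the GC offset Hsp90b1 was at -0.0157, Dnajb9 at -0.157 and Edem1 at -0.0248. With the replicate block and GC offset together Hsp90b1 was at -0.0152, Dnajb9 at -0.156 and Edem1 at -0.0250. Leaving out a library gave a range across 0 for Hsp90b1 (-0.126 to 0.578), Dnajb9 (-0.373 to 0.655), Edem1 (-0.0100 to 0.172) and Atf4 (-0.00713 to 0.137). The count of genes called over the whole table was 1 with edgeR, 0 with library size alone, 0 with no filter, 0 with limma-voom, 49 with DESeq2, 33 with the replicate block and 24 with the replicate block and GC offset together. Leaving out a library gave 0 to 36, with 36 without Ctrl 1, 29 without Il33flx 1, 1 without Il33flx 2 and 0 without Ctrl 2. The cause was not tested. Deviations of same-numbered libraries from their group means correlated at r = -0.0323. With 2 libraries a group this cannot decide whether the numbers pair them. No gene of the 10 was called with the block. Trib3 had the fewest counts, 90 to 144 a library, and the widest interval of the 10 genes.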

Other observations

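Some cytosolic heat shock genes, chosen after their values were seen, read higher in both Il33flx libraries. Hspa1a, an inducible Hsp70 gene of the cytosol, had 60.4 and 169 CPM in the Il33flx libraries, against 23.2 and 40.1 CPM in the Ctrl libraries, and its neighbour Hspa1b had 101 and 268 CPM, against 29.9 and 60.8 CPM in the Ctrl libraries. The pair is nearly identical in sequence, so the split between them is uncertain. Neither was called by the main edgeR fit (log2 fold change 1.86 and 2.02, adjusted p = 0.995 for each). Over the alternatives that kept all 4 libraries the adjusted p ran from 0.000917 to 0.995. DESeq2 called both (adjusted p = 0.0316 and 0.0111), where it called 0.255% of all genes. Il33flx 2 was the highest library for each, and without it the log2 fold changes were 0.96 and 1.18. All 10 genes of the list for cell dissociation and heat shock lay above 0 on the log2 scale, where 51.8% of all tested genes did. At an unadjusted p under 0.05 (edgeR) stood 2 of them, where 3.26% of all tested genes did. The median of this list was 0.22, beside a median of 0.05 for the 10 unfolded protein response genes. Whether the lists differ was not tested.

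Over the 4 libraries, the mean profile of the 10 genes in centred log2 CPM was 0.04 and 0.01 in the Il33flx libraries and -0.08 and 0.04 in the Ctrl libraries. The genes nearest to it among 8040 others of at least 10 CPM were Il10rb, Prune1, Ppm1h, Was and Trak2, at root mean square distances of 0.00683 to 0.0135. The 10 genes themselves lay at 0.0340 (Edem1) to 0.348 (Dnajb9).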
